A study of Danio rerio with 16 samples.

Results

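The genes described here are the nuclear genes of oxidative phosphorylation in zebrafish (Danio rerio) larvae: those for the subunits of respiratory complexes I to IV, cytochrome c and ATP synthase, with the assembly factors that share their symbols. They were chosen by symbol (names that begin with nduf, sdha to sdhd, uqcr, cox4 to cox8 or atp5, plus cyc1 and the cytochrome c genes) and by lying outside the mitochondrial chromosome, which gave 106 of the 26183 genes in the deposited counts. This rule was set with earlier results of these data known. Transcripts were measured by RNA sequencing in larvae 7 days old. The solvent control received DMSO (dimethyl sulfoxide, n = 4 libraries), and exposed larvae received PFBA (perfluorobutanoic acid, a short-chain perfluorinated acid) for 7 days at 0.1 µg/L (n = 3), 1 µg/L (n = 4) or 10 µg/L (n = 5). The labels name no strain, transgene or genetic change. They do not say which libraries came from separate tanks or clutches, so p-values measure only the spread between these samples.

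Complexes I and II pass electrons from NADH and succinate to ubiquinone, complex III passes them on to cytochrome c, and complex IV, cytochrome c oxidase, reduces oxygen. Complexes I, III and IV pump protons across the inner mitochondrial membrane, and ATP synthase, complex V, uses the gradient to make ATP. Most subunits are encoded in the nucleus, a few by the mitochondrial genome, and tissues with a high energy demand such as muscle and heart hold many mitochondria.

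The 16 libraries held 9708464 to 13862232 reads, of which 0.659% to 1.53% fell on these genes. Libraries are named by the number in the deposited column names. Libraries 1 and 2 of the lowest dose were unlike the others: their scaling factors by the trimmed mean of M values (TMM) were 0.581 and 0.742, with 0.928 to 1.14 elsewhere, and reads fell on 20118 and 21183 genes, fewer than the 21247 to 22975 elsewhere. In comparisons with 0.1 µg/L, edgeR's medians for the members and the values of most genes described are given with and without them. Some values of marker lists and of genes outside the symbol rule are given from all libraries only. Counts by edgeR are given from all libraries and, in places, with a single library left out. Counts by DESeq2 and limma-voom are from all libraries. Levels are CPM on TMM-scaled library sizes, or RPKM, which also divides by gene length, where genes are compared with each other. Fold changes and adjusted p-values come from edgeR's quasi-likelihood test over 19092 genes with Benjamini-Hochberg adjustment, and genes with an adjusted p under 0.05 count as called.

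Of the 106 genes 104 had enough reads to be tested. The others were ndufb4, with 8 reads in all and none in 13 libraries, and ndufs1, for the largest iron-sulfur subunit of complex I, with 2 reads in all, both in library 4 at 1 µg/L. ndufs1 lies on chromosome 6 (GRCz11, 13206516 to 13231951, plus strand) and overlaps ino80db on the same strand, as listed in the tables. The 106 genes lay on 25 chromosomes, and 105 were listed as protein coding, ndufs8b being the exception as a polymorphic pseudogene. The 104 tested members had a median length of 999.5 bases, against 2455 over all genes tested, and a median level of 59.0 CPM, against 9.64. The levels were uneven: 34 members were above 100 CPM and 16 below 5 CPM, and the 10 most abundant held 44.1% of the summed CPM.

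Per length, ATP synthase was the class with the highest summed level, and it held the most abundant genes. Over the 16 libraries the mean level was 624 RPKM for atp5f1b, the catalytic beta subunit, and 606 RPKM for atp5mc3b, one of the genes for the membrane ring subunit c. In complex IV COX5B on chromosome 10 had 480.5 RPKM and cox4i1 456 RPKM. The cytochrome c gene cycsb had 187 RPKM and uqcrh, the hinge protein of complex III, 167 RPKM. In complex I the accessory subunit genes ndufb7 and ndufa6 had 153 and 151 RPKM, the core subunit genes ndufv1 and ndufv2 89.6 and 82.0 RPKM, and the assembly factor genes ndufaf5 and ndufaf1 31.1 and 19.3 RPKM. In complex II sdha had 98.2 RPKM and sdhb 63.0 RPKM. The lowest tested member was uqcrb, a complex III subunit gene, at 0.733 RPKM.

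Compared with control, no member was called at any dose, and the largest difference was at 0.1 µg/L. The median log2 fold change of the 104 members was 0.97 at 0.1 µg/L, against -0.09 over all genes tested. It was 0.14 at 1 µg/L, against -0.02, and 0.06 at 10 µg/L, against -0.02. At 0.1 µg/L 101 members had a positive log2 fold change and 3 a negative one, while 44.5% of all genes were positive. The 3 comparisons share the same control libraries.

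At 0.1 µg/L edgeR called 0 of 104 members, with 80 at an unadjusted p below 0.05 and a lowest adjusted p of 0.0858. Of all genes 0.0% were called and 21.8% had an unadjusted p below 0.05. DESeq2 called 71 members, 70 of them higher and 1 lower, and limma-voom called 0. Of all genes with an adjusted p DESeq2 called 10.3%. Without library 3 of the exposed group edgeR called 82 members and 32.0% of all genes. The 2 groups did not overlap in 5 genes that were higher (sdhaf4, ndufaf6, cox6a2, atp5meb and ndufaf3; 3.57% of all genes) and in 1 that was lower (COX5B on chromosome 8; 5.16% of all genes).

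The difference at 0.1 µg/L lay in libraries 1 and 2. The summed level of the members was 26388, 18337 and 9725 CPM in libraries 1, 2 and 3 at 0.1 µg/L, and 9427, 11650, 8762 and 6011 CPM in control libraries 1, 3, 4 and 5. It was 10017, 11057, 11933 and 8758 CPM at 1 µg/L, and 9359, 8248, 7791, 13611 and 9333 CPM at 10 µg/L. Libraries 1 and 2 were above every other library, and library 3 lay inside the control range. These libraries were the highest pair for 75 of the 104 members (72.1%) and for 14.3% of all genes tested. Control library 5 was the lowest of the 16 for 70 members and for 7.87% of all genes. With libraries 1 and 2 left out, the median at 0.1 µg/L was 0.10, with 75 members positive and 29 negative; the lone library was assumed to vary like the other groups. In bulk samples like these, fewer cells of a type and less RNA per cell cannot be told apart.

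**Figure D1:**
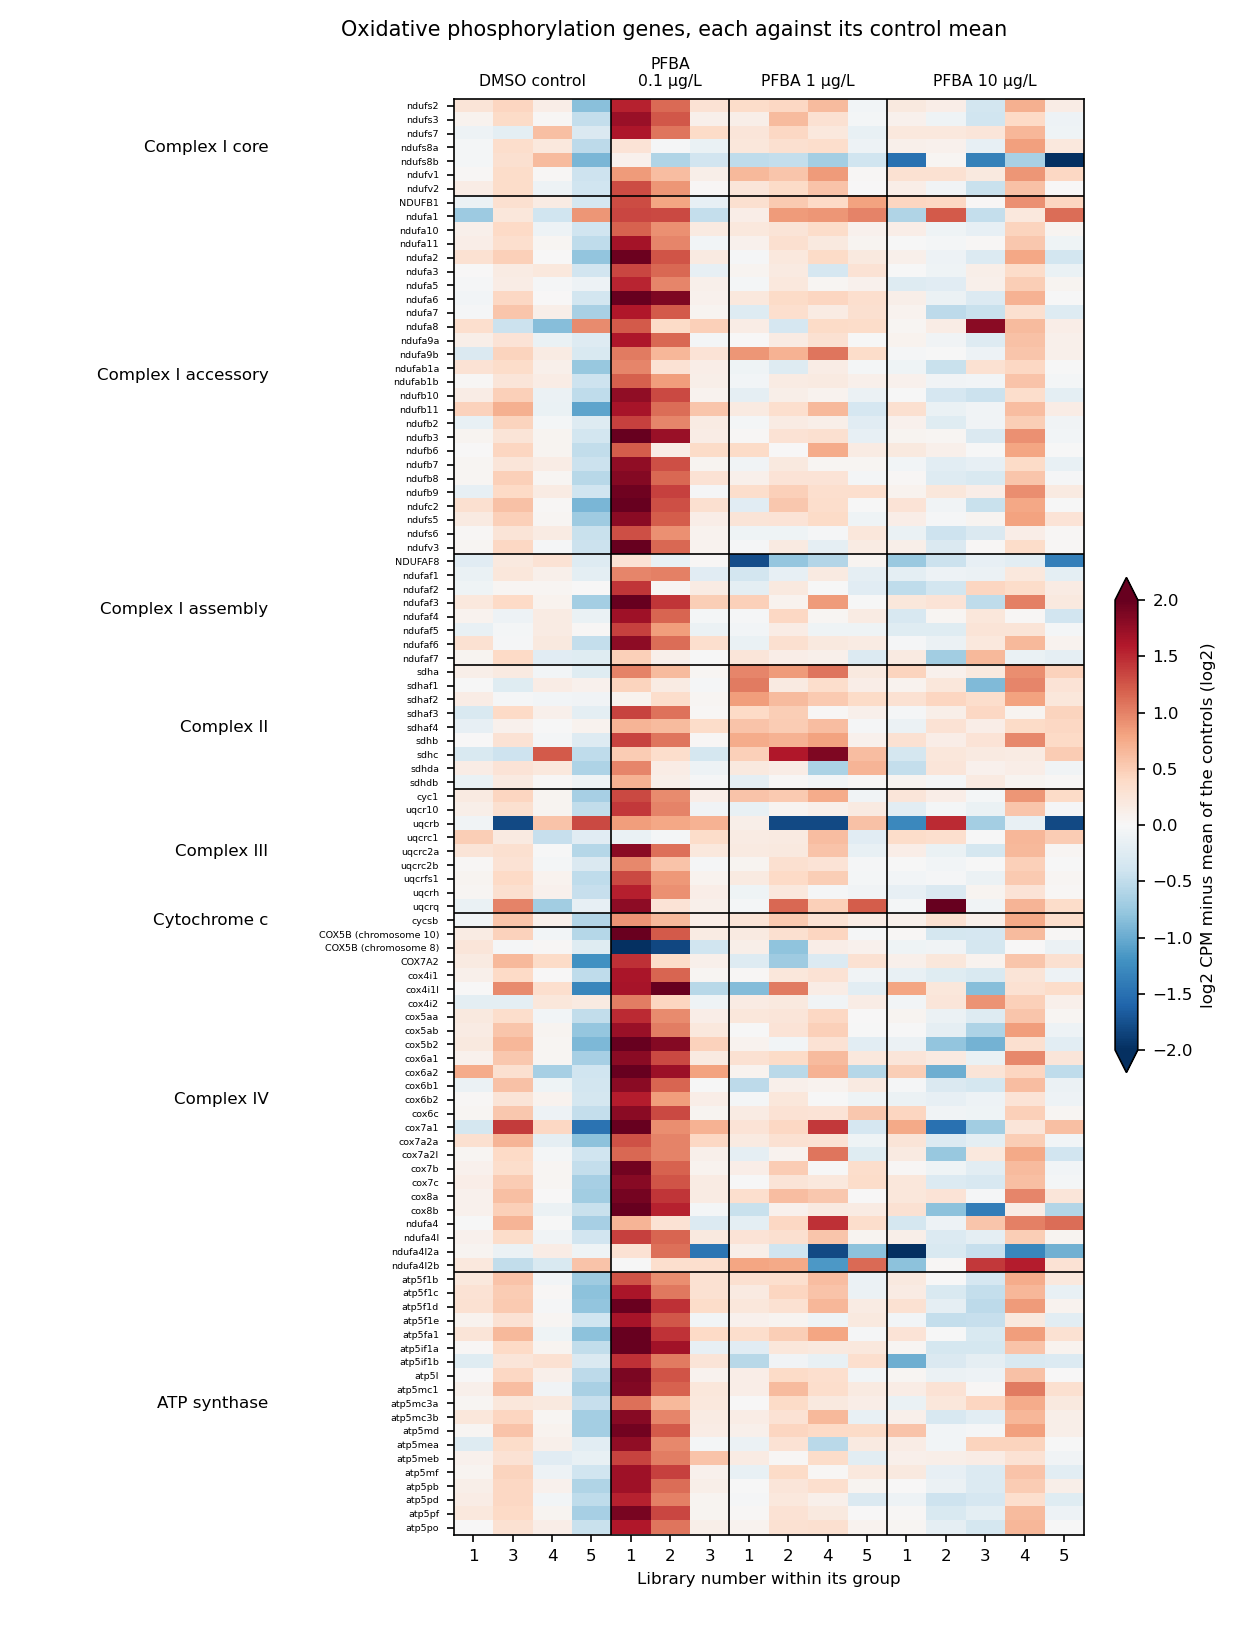
Level of the 104 tested genes (rows, grouped by complex) in the 16 libraries (columns), as log2 CPM minus the control mean of each gene, with colours capped at 2 in either direction. Libraries 1 and 2 at 0.1 µg/L are above the control mean for 101 and 99 genes, while control library 5 is above it for 9.

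Markers of some other tissues differed in the same libraries. Of 18 skeletal muscle markers 17 were tested, and all 17 had a positive log2 fold change at 0.1 µg/L, with a median of 1.63 and 0 called. Their summed level was 11824 to 51978 CPM in controls, 43781 to 149971 CPM at 0.1 µg/L, 20653 to 61221 CPM at 1 µg/L and 9150 to 41216 CPM at 10 µg/L, and no marker was at 0 reads over the libraries. Libraries 1 and 2 at 0.1 µg/L had the highest muscle sums, 149971 and 91933.5 CPM, and control library 5 had 11824 CPM, the lowest except for library 3 at 10 µg/L. All 10 liver markers were also positive at 0.1 µg/L, with a median of 1.36 and sums of 432 to 2753 CPM in controls against 2135 to 6241 CPM. The median was 0.67 for 8 heart markers (6 positive), 0.72 for 10 red blood cell markers (8 positive) and 0.55 for 7 ionocyte markers (4 positive). It was 0.01 for 10 neuron markers (5 positive) and -0.03 for 10 photoreceptor markers (4 positive). The summed ionocyte level at 0.1 µg/L, 53.0 to 69.3 CPM, lay inside the control range of 50.1 to 85.3 CPM. After libraries 1 and 2 were left out, the medians were 0.51 for muscle, 0.46 for liver, 0.39 for heart and 0.43 for red blood cells, while that of the members was 0.10. At 1 and 10 µg/L the muscle median was 0.14 and -0.58, that of liver -0.41 and -0.19 and that of heart -0.32 and -0.63. The medians were -0.10 and -0.16 for red blood cells and 0.05 and -0.35 for ionocytes. For neurons they were 0.04 and 0.05, and for photoreceptors 0.04 and 0.75. At 1 µg/L 1 ionocyte marker was called lower, beside 0.0524% of all genes. At 10 µg/L 1 photoreceptor marker was called higher, beside 0.0838%. The summed ionocyte level, 26.4 to 39.6 CPM at 1 µg/L and 18.5 to 44.6 CPM at 10 µg/L, lay below all controls. The part of these tissues in the members' differences was not tested.

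**Figure D2:**
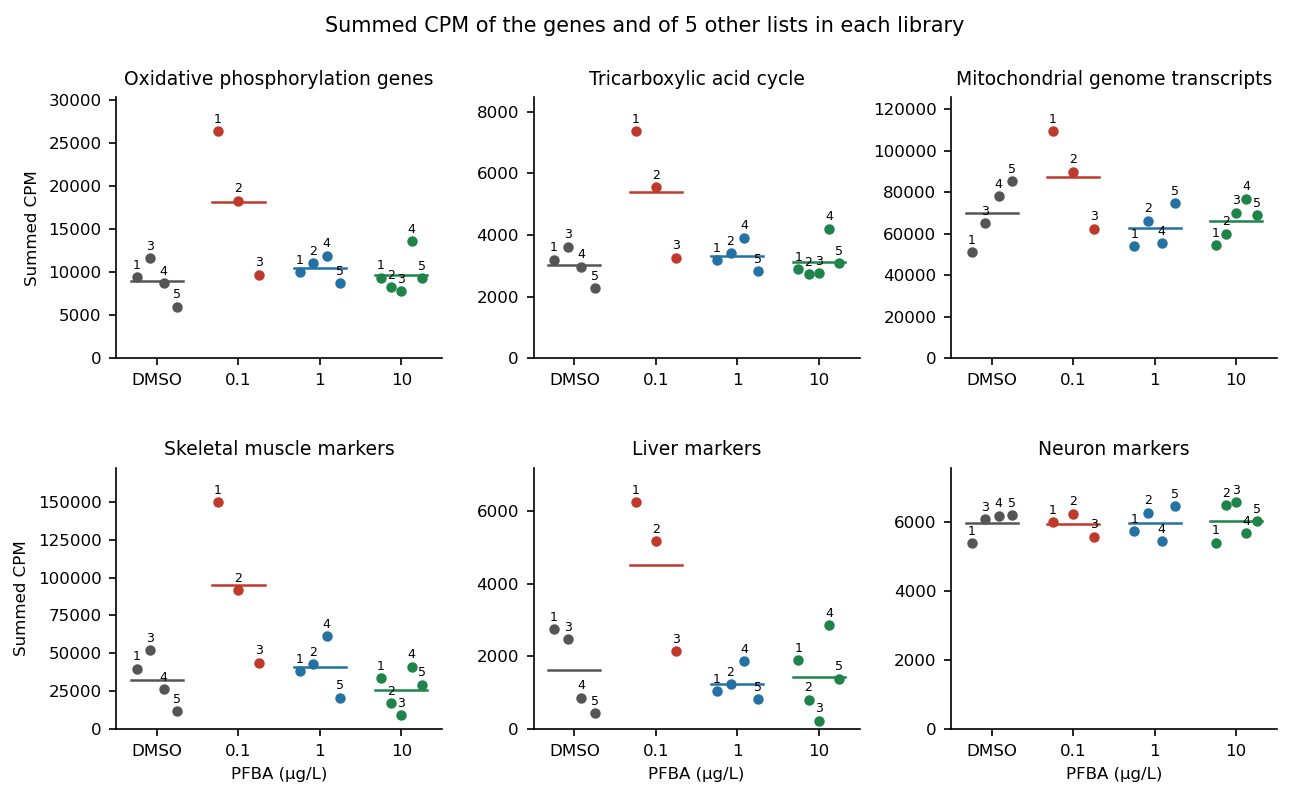
Summed CPM of the members and of 5 other gene lists in each library, with a line at the group mean. Libraries 1 and 2 at 0.1 µg/L lie highest for the members (26388 and 18337 CPM) and for the skeletal muscle markers (149971 and 91933.5 CPM).

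Each of the 8 classes had a positive median at 0.1 µg/L, though that of complex II turned negative when only library size was scaled. The median was 1.08 for the 19 ATP synthase genes, 1.05 for the 25 complex IV genes, 1.01 for the 26 complex I accessory subunits, 0.81 for the 9 complex III genes, 0.80 for the 7 complex I core subunits, 0.75 for the 8 complex I assembly factors, 0.54 for cytochrome c and 0.39 for the 9 genes of complex II. In the fit that lacks libraries 1 and 2, the same medians were 0.12, 0.13, 0.10, 0.10, 0.10, 0.01, 0.10 and 0.03. Every ATP synthase gene, every accessory subunit and every complex III gene was positive with TMM factors. Scaling by library size alone moved the median of all genes to -0.50 in this comparison, and the members' median was then 0.41 with 88 positive. Relative to the median of all genes the members stood 1.06 higher with TMM factors, 0.91 higher with library size alone and 0.75 higher once a trend with gene length was removed. On the scale of library size alone the class medians ran from 0.50 for ATP synthase to 0.04 for cytochrome c and -0.14 for complex II.

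**Figure D3:**
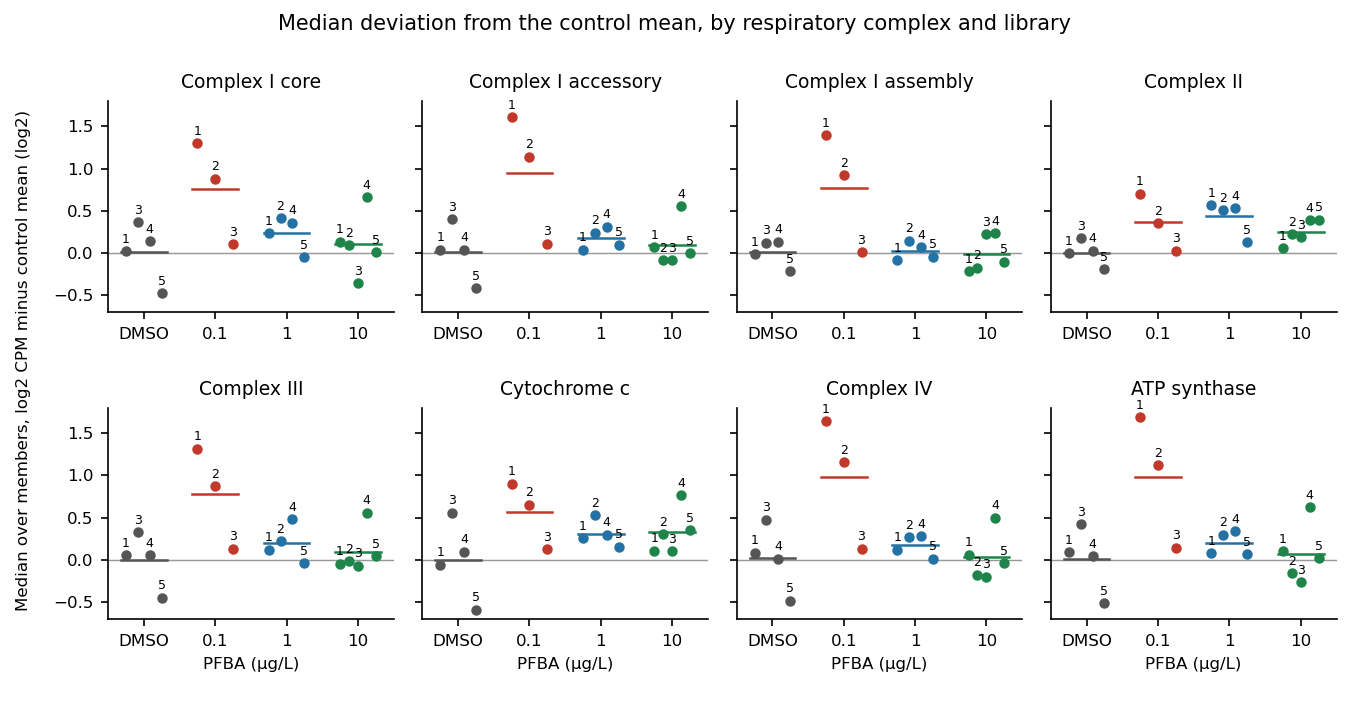
Median over the members of each class of log2 CPM minus the control mean, per library (numbered points) with a line at the mean of each group's libraries. In the ATP synthase panel the 3 libraries at 0.1 µg/L lie at 1.69, 1.12 and 0.14, and in the complex II panel 3 of the 4 libraries at 1 µg/L lie at 0.50 to 0.56.

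Within complex I the accessory subunit ndufa6 (ENSDARG00000038028, chromosome 3, 1182315 to 1186100, plus strand) had one of the largest differences. Its level was 76.8, 106, 80.5 and 61.5 CPM in controls and 463, 291 and 85.0 CPM at 0.1 µg/L. It was 91.9, 104, 108 and 101 CPM at 1 µg/L and 86.2, 73.8, 66.3, 129 and 79.1 CPM at 10 µg/L. Libraries 1 and 2 at 0.1 µg/L were well above all others, and library 3 lay among the controls, so the groups overlapped. The log2 fold change against control was 1.78 (SE 0.369, edgeR adjusted p = 0.0858), and in the comparison of 10 with 0.1 µg/L it was -1.69 (SE 0.345, edgeR adjusted p = 0.0108). With libraries 1 and 2 excluded, the first was 0.09 and the second 0.02, on the other side of 0.

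Libraries 1 and 2 at 0.1 µg/L were also the highest for the accessory subunit ndufb7, which had 87.7, 101, 94.2 and 63.3 CPM in controls and 291, 208 and 88.5 CPM at 0.1 µg/L. It had 81.5, 97.3, 87.9 and 88.1 CPM at 1 µg/L and 82.4, 73.8, 76.3, 112 and 77.0 CPM at 10 µg/L. As with ndufa6, only library 3 at 0.1 µg/L lay among the other groups. For ndufb7 the log2 fold change was 1.18 (SE 0.277, edgeR adjusted p = 0.0858) against control, and that of ndufb3 was 1.502 (SE 0.341, edgeR adjusted p = 0.0858). ndufb3 shares part of its span with usp37 on the same strand, so its count is less certain. Without libraries 1 and 2 these values were 0.06 for ndufb7 and 0.16 for ndufb3.

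The tested core subunits, some of which carry the flavin and iron-sulfur clusters, had log2 fold changes of -0.43 to 1.14 at 0.1 µg/L. The lowest was that of ndufs8b, listed as a polymorphic pseudogene. ndufs3 had 56.9, 70.3, 55.2 and 38.9 CPM in controls and 179, 128 and 58.1 CPM at 0.1 µg/L, with a log2 fold change of 1.14 (SE 0.295, edgeR adjusted p = 0.0858). The iron-sulfur subunit ndufs8a (chromosome 1, 44814322 to 44823071, plus strand) had 61.8, 81.0, 73.7 and 44.2 CPM in controls and 76.7, 62.2 and 57.9 CPM at 0.1 µg/L, a log2 fold change of 0.01 (SE 0.231, edgeR adjusted p = 0.985). All 3 exposed libraries of ndufs8a lay inside the control range, unlike those of ndufs3. Both genes were named after their values were seen. With libraries 1 and 2 left out, the log2 fold change was 0.10 for ndufs3, -0.14 for ndufs8a and 0.13 for ndufv1. ndufv1, for the subunit that binds NADH, had 177, 225, 178 and 131 CPM in controls and 315, 266 and 190.2 CPM at 0.1 µg/L. It had 272, 255, 315 and 177 CPM at 1 µg/L and 216, 214, 199, 321 and 233 CPM at 10 µg/L. The groups of ndufv1 overlapped, with log2 fold changes of 0.53, 0.52 and 0.41 at the 3 doses and edgeR adjusted p of 0.200, 0.985 and 0.640.

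Among the assembly factors, which build complex I and are not part of it, ndufaf3 had 34.7, 39.3, 31.3 and 18.6 CPM in controls and 156, 80.6 and 42.1 CPM at 0.1 µg/L. All 3 exposed libraries were above all controls, with library 3 just above. This gave a log2 fold change of 1.58 (SE 0.386, edgeR adjusted p = 0.0858). ndufaf5, for an enzyme that modifies a core subunit during assembly, had 29.7, 32.3, 36.8 and 33.6 CPM in controls and 85.3, 59.2 and 30.3 CPM at 0.1 µg/L. Its groups overlapped at library 3, and the log2 fold change was 0.81 (SE 0.247, edgeR adjusted p = 0.104). After libraries 1 and 2 were left out, the values were 0.47 for ndufaf3 and -0.10 for ndufaf5.

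Complex II had a higher median log2 fold change at 1 µg/L than at 0.1 µg/L, although the group means of its summed level had the same order as those of ATP synthase, highest at 0.1 µg/L and lowest in controls. Its summed level was 465, 521, 449 and 394 CPM in controls and 940.1, 747 and 463 CPM at 0.1 µg/L. It was 769, 728, 802 and 502 CPM at 1 µg/L and 565, 491, 525.7, 798 and 588 CPM at 10 µg/L. The libraries at 1 µg/L other than library 5 were thus well above every control, and library 3 at the lowest dose was among the controls. The median log2 fold change of its 9 genes was 0.39 at 0.1 µg/L, 0.47 at 1 µg/L and 0.23 at 10 µg/L; without libraries 1 and 2 the value at 0.1 µg/L was 0.03. At 1 µg/L no other class median exceeded 0.26, and that difference between classes was not tested.

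The catalytic subunit sdha, the flavoprotein that oxidises succinate (ENSDARG00000016721, chromosome 19, 7276060 to 7291733, minus strand), had 216, 225, 192 and 169 CPM in controls. It had 396, 309 and 204 CPM at 0.1 µg/L, 391, 359, 418 and 227 CPM at 1 µg/L, and 271, 212, 227, 378 and 275 CPM at 10 µg/L. Every library at 1 µg/L was above every control, library 5 by a narrow margin. At 1 µg/L the log2 fold change was 0.80 (SE 0.231), which did not pass over all genes (edgeR adjusted p = 0.540). The values were 0.60 (SE 0.247, edgeR adjusted p = 0.186) at 0.1 µg/L and 0.44 (SE 0.220, edgeR adjusted p = 0.639) at 10 µg/L. In the fit that lacks libraries 1 and 2, the value at 0.1 µg/L was 0.05.

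sdhaf2, for the factor that attaches the flavin to sdha (ENSDARG00000062971, chromosome 7, 13353080 to 13362590, minus strand), had a narrow spread in controls, with 19.2, 17.0, 16.8 and 16.5 CPM. It had 18.3, 22.2 and 17.7 CPM at 0.1 µg/L, 31.1, 27.0, 25.1 and 22.5 CPM at 1 µg/L, and 21.6, 23.3, 22.1, 30.5 and 20.2 CPM at 10 µg/L. All libraries at 1 and 10 µg/L were above all controls, while those at 0.1 µg/L overlapped them. For sdhaf2 the log2 fold change was 0.61 (SE 0.167, edgeR adjusted p = 0.469) at 1 µg/L and 0.44 (SE 0.159, edgeR adjusted p = 0.400) at 10 µg/L, the lowest adjusted p among the members at each of those doses. In the authors' deposited table sdha had a log2 fold change of 0.81 at 1 µg/L with an adjusted p of 0.0241. In the authors' deposited table sdhaf2 had 0.62 at that dose with an adjusted p of 0.0487.

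The iron-sulfur subunit sdhb (chromosome 22, 11395 to 18224, plus strand) had 146, 178, 143 and 122 CPM in controls and 372, 305 and 149 CPM at 0.1 µg/L. It had 245, 237, 255 and 155 CPM at 1 µg/L and 179.9, 161, 177, 283 and 192 CPM at 10 µg/L. The exposed groups each overlapped the controls. Its log2 fold changes were 0.90, 0.60 and 0.43 at 0.1, 1 and 10 µg/L, with an edgeR adjusted p of 0.100, 0.985 and 0.703; the first was 0.04 without libraries 1 and 2. The membrane anchor gene sdhc was near 0 at 0.1 µg/L (log2 fold change -0.00, SE 0.485, edgeR adjusted p = 0.997), with 1 high control library at 5.47 CPM against 1.53 to 1.78 CPM in the others. Without libraries 1 and 2 its value was -0.57. At 1 µg/L sdhc had a log2 fold change of 1.11 in the authors' deposited table, with an adjusted p of 0.400.

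In complex III uqcrh, for the hinge protein beside cytochrome c1, had 118, 144, 122 and 83.7 CPM in controls and 338, 215 and 126 CPM at 0.1 µg/L. It had 108, 133, 113 and 109 CPM at 1 µg/L and 102, 94.1, 119.7, 138 and 117 CPM at 10 µg/L. Again only libraries 1 and 2 at 0.1 µg/L stood above the rest. The log2 fold change against control was 0.96 (SE 0.251, edgeR adjusted p = 0.0858). The values were 0.82 for cyc1, the cytochrome c1 gene, 0.81 for uqcrfs1, the Rieske iron-sulfur protein (edgeR adjusted p = 0.115), and 0.04 for the core protein gene uqcrc1 (edgeR adjusted p = 0.941). uqcrc1 had 17.7, 18.8 and 25.0 CPM at 0.1 µg/L and 27.4, 22.0, 14.1 and 16.5 CPM in controls, so its exposed libraries lay inside the control range. The soluble carrier gene cycsb had 138, 212, 154 and 95.4 CPM in controls and 269, 227 and 157 CPM at 0.1 µg/L, a log2 fold change of 0.54 (SE 0.239, edgeR adjusted p = 0.207). When libraries 1 and 2 were removed, the values were 0.14 for uqcrh, 0.10 for cyc1, 0.07 for uqcrfs1, 0.35 for uqcrc1 and 0.10 for cycsb.

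In complex IV the 3 genes for subunit 5B, which binds zinc, went different ways. cox5b2 (chromosome 13, 50375800 to 50378038, plus strand) had 10.0, 13.9, 8.93 and 4.58 CPM in controls and 38.8, 31.4 and 12.1 CPM at 0.1 µg/L. It had 9.15, 8.41, 10.7 and 7.54 CPM at 1 µg/L and 8.05, 4.96, 4.43, 11.0 and 7.5 CPM at 10 µg/L. Every library at 0.1 µg/L was above every library at 1 and 10 µg/L, and library 3 was inside the control range. COX5B on chromosome 10 (42374770 to 42378524, plus strand) had 258, 319, 223 and 156 CPM in controls and 906, 543 and 258 CPM at 0.1 µg/L, a log2 fold change of 1.25 (SE 0.334, edgeR adjusted p = 0.0864). With libraries 1 and 2 left out, the log2 fold change against control was 0.39 for cox5b2 and 0.14 for COX5B on chromosome 10.

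COX5B on chromosome 8 (ENSDARG00000113254, 52408583 to 52413032, minus strand) was the member with the lowest log2 fold change at 0.1 µg/L. It had 19.6, 16.2, 16.8 and 14.0 CPM in controls and 1.24, 4.56 and 12.6 CPM at 0.1 µg/L. It had 18.0, 9.45, 18.2 and 17.6 CPM at 1 µg/L and 15.6, 15.7, 13.0, 16.6 and 15.3 CPM at 10 µg/L. The libraries at 0.1 µg/L were below all controls and all libraries at 10 µg/L, library 3 only just. Against control the log2 fold change was -1.42 (SE 0.457, edgeR adjusted p = 0.119), and from 0.1 to 10 µg/L it was 1.29 (SE 0.442, edgeR adjusted p = 0.0680). After libraries 1 and 2 were left out, these were -0.38 and 0.27. Its share of the summed RPKM of the 3 genes was 10.4% on average in controls and 0.22%, 1.3% and 7.17% in the libraries at 0.1 µg/L. How reads that fit more than 1 place were counted was not stated in any source used here, which leaves the split between these genes uncertain.

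cox6a2, in mammals the isoform of heart and skeletal muscle, had the largest log2 fold change of any member at 0.1 µg/L, 1.84 (SE 0.506, edgeR adjusted p = 0.0864), at a low level. The reference symbol of this gene is COX6A1, so its match to the muscle isoform is uncertain. Levels of cox6a2 were 3.94, 2.89, 1.38 and 1.69 CPM in controls and 14.7, 7.88 and 4.13 CPM at 0.1 µg/L. All 3 exposed libraries were above all controls, library 3 narrowly. cox4i1 had 283, 350.0, 267 and 186 CPM in controls and 821, 593 and 273 CPM at 0.1 µg/L, a log2 fold change of 1.05 (SE 0.279, edgeR adjusted p = 0.0864). cox4i2, in mammals the isoform of lung that responds to low oxygen, had 98.1, 97.7, 131 and 127 CPM in controls and 228, 151 and 106 CPM at 0.1 µg/L, a log2 fold change of 0.51 (SE 0.242, edgeR adjusted p = 0.230). Both subunit 4 genes overlapped the controls through library 3. Without libraries 1 and 2 the values were 0.76 for cox6a2, 0.04 for cox4i1 and -0.07 for cox4i2.

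**Figure D4:**
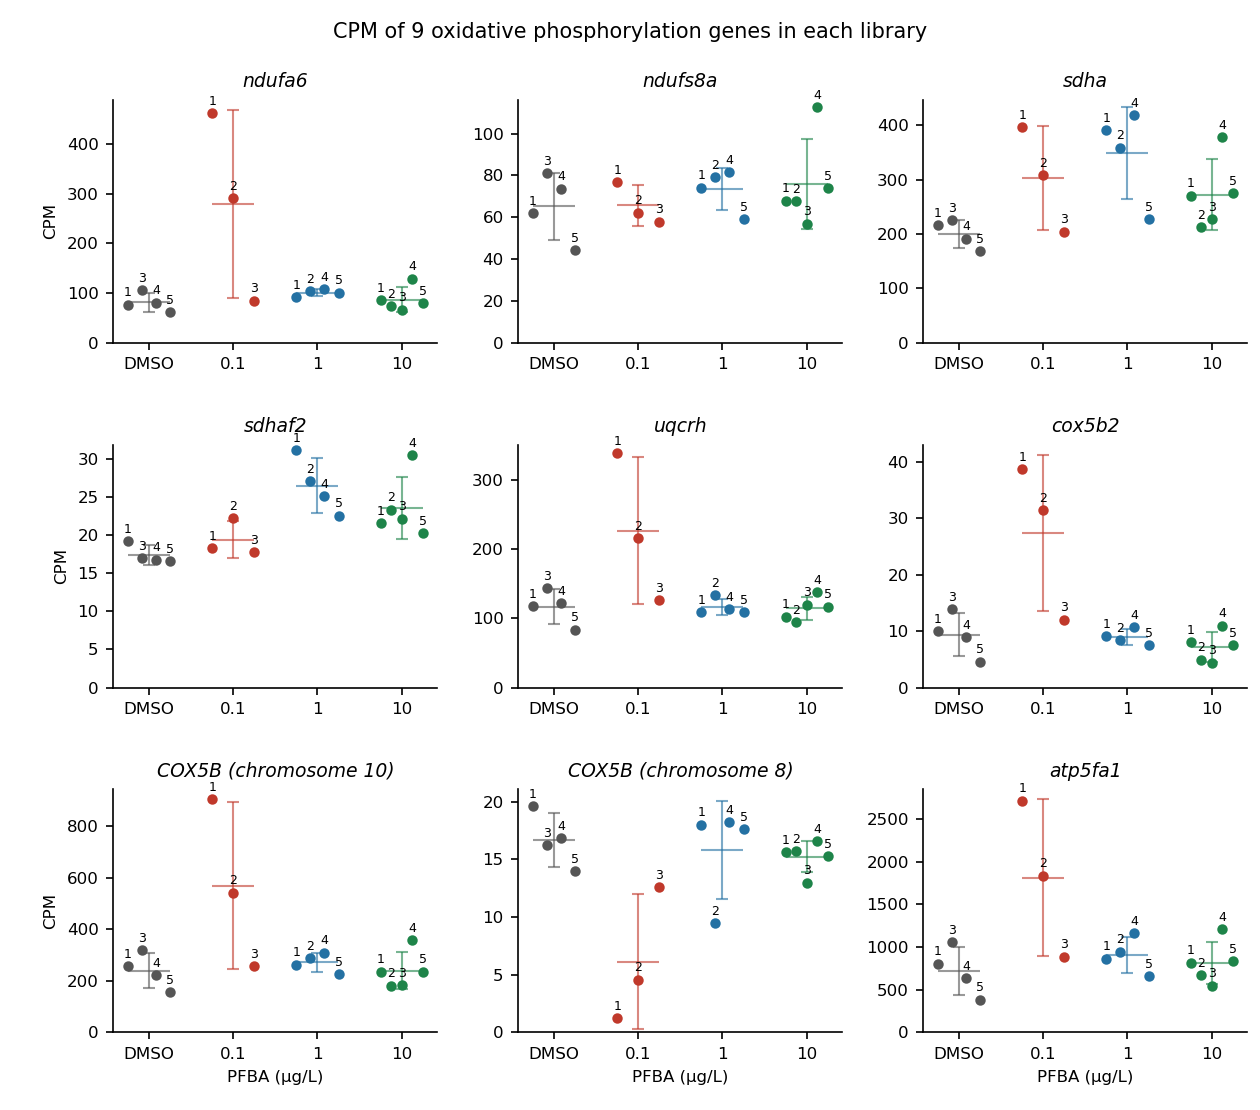
CPM of 9 members in each library (points) with the mean and SD of each group (line and bar). COX5B on chromosome 8 is at 1.24 and 4.56 CPM in libraries 1 and 2 at 0.1 µg/L, where COX5B on chromosome 10 is at 906 and 543 CPM, and sdhaf2 is at 22.5 to 31.1 CPM at 1 µg/L against 16.5 to 19.2 CPM in controls.

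In ATP synthase all 19 genes had a log2 fold change of 0.68 to 1.51 at 0.1 µg/L with TMM factors. atp5meb, for the subunit e that holds dimers together (ENSDARG00000068940, chromosome 5, 9070382 to 9073433, minus strand), had 39.8, 45.8, 31.7 and 33.6 CPM in controls and 95.0, 76.4 and 55.6 CPM at 0.1 µg/L. It had 41.7, 37.8, 48.2 and 32.1 CPM at 1 µg/L and 39.9, 40.5, 41.5, 45.8 and 35.7 CPM at 10 µg/L. All 3 libraries at 0.1 µg/L, library 3 included, were above every other library. The log2 fold change against control was 1.00 (SE 0.191, edgeR adjusted p = 0.0858), and 0.59 without libraries 1 and 2.

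The catalytic subunits showed wider control spreads. atp5fa1, for the alpha subunit, had 804, 1053, 637 and 383 CPM in controls and 2717, 1838 and 886 CPM at 0.1 µg/L, a log2 fold change of 1.33 (SE 0.365, edgeR adjusted p = 0.0864). atp5f1b had 1051, 1349, 875 and 555 CPM in controls and 2171, 1741 and 1128 CPM at 0.1 µg/L, a log2 fold change of 0.81 (SE 0.304, edgeR adjusted p = 0.158). In both genes control library 5 was the lowest of the controls and library 3 at 0.1 µg/L lay within their range. atp5if1a, for the inhibitory factor that blocks reversal of the enzyme, had 56.9, 73.7, 58.1 and 39.7 CPM in controls and 259, 179 and 49.6 CPM at 0.1 µg/L, a log2 fold change of 1.51 (SE 0.373, edgeR adjusted p = 0.0858). With libraries 1 and 2 excluded, the values were 0.33 for atp5fa1, 0.26 for atp5f1b and -0.18 for atp5if1a.

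At 1 µg/L edgeR called 0 of 104 members, with 7 at an unadjusted p below 0.05. Of all genes 0.0681% were called (0.0157% higher, 0.0524% lower) and 4.89% had an unadjusted p below 0.05. DESeq2 and limma-voom also called 0. Of those 7, 5 were genes of complex II. Positive log2 fold changes numbered 81 and negative ones 23. The groups did not overlap in 3 genes that were higher, sdha, sdhaf2 and the accessory subunit gene NDUFB1 (2.80% of all genes), and in 0 that were lower (2.65% of all genes). NDUFB1, named after its values were seen, had 16.1, 21.8, 19.5 and 13.6 CPM in controls and 21.9, 25.0, 23.0 and 30.5 CPM at 1 µg/L. The values with the lowest p on the negative side were -0.68 for NDUFAF8, -0.70 for ndufs8b and -0.61 for ndufa4l2a (edgeR adjusted p = 0.998 for each).

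At 10 µg/L edgeR called 0 of 104 members, with 2 at an unadjusted p below 0.05, and DESeq2 and limma-voom called 0. Of all genes 0.225% were called (0.0838% higher, 0.141% lower) and 8.23% had an unadjusted p below 0.05. The members' median of 0.06 came with 72 positive and 32 negative genes. It was -0.07 without control library 5 and -0.05 without library 4 at 10 µg/L, which was above the control mean for 98 members, while libraries 2 and 3 were above it for 35 and 36. The groups did not overlap in sdhaf2, which was higher (2.32% of all genes), and in ndufa4l2a, which was lower with a log2 fold change of -0.97 (SE 0.508, edgeR adjusted p = 0.667; 2.83% of all genes).

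Between 10 and 0.1 µg/L 52 of the 104 members were called lower at 10 µg/L and 0 were called higher, while of all genes 10.6% were called, 7.34% lower and 3.26% higher. The median log2 fold change was -0.92, against 0.08 over all genes, and 96 members were negative. Called lower were 16 of 26 accessory subunits of complex I, 14 of 19 genes of ATP synthase and 12 of 25 of complex IV. So were 5 of 8 assembly factors, 3 of 9 complex III genes and 2 of 7 complex I core subunits. None of the 9 complex II genes and not cytochrome c passed. The groups did not overlap in 5 lower genes (atp5if1b, cox6a2, cox5b2, atp5meb and NDUFAF8; 6.81% of all genes) and in COX5B on chromosome 8, which was higher (6.41% of all genes).

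This count rested on libraries 1 and 2 at 0.1 µg/L. Without library 1 edgeR called 0 members, beside 0.44% of all genes. Without library 2 it called 3, beside 1.33%. The fit without both left a lone library at that dose, so no count is given for it. In the 10 µg/L group it called 33 without library 1 and 9 without library 2, beside 7.49% and 3.21% of all genes. Without library 3 or 5 of that group it called 26 and 21, beside 6.42% and 5.49%. With library 3 at 0.1 µg/L left out the count was 76. When libraries 1 and 2 were removed, the median was -0.02, with 49 members positive and 55 negative. Fitted on the compared groups alone, edgeR called 0, beside 0.847% of all genes. With library size alone it called 6 members, no larger a share than the 6.26% of all genes. DESeq2 called 66 members, 1 of them higher, and 18.4% of all genes, and limma-voom called 36, 1 of them higher, and 10.4% of all genes. With library 3 at the lowest dose left out, 36.6% of all genes were called.

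The 10 members with the lowest p in that comparison came from 3 complexes. In complex IV cox5b2 fell by 1.93 on the log2 scale (SE 0.374, edgeR adjusted p = 0.00923), cox4i1 by 1.18 (SE 0.263, edgeR adjusted p = 0.0153), cox8b by 1.77 (SE 0.410, edgeR adjusted p = 0.0171) and cox6b2 by 0.99 (SE 0.230, edgeR adjusted p = 0.0171). In ATP synthase atp5meb fell by 0.89 (SE 0.181, edgeR adjusted p = 0.0108), the epsilon subunit gene atp5f1e by 1.29 (SE 0.265, edgeR adjusted p = 0.0110) and the inhibitory factor gene atp5if1b by 1.40 (SE 0.290, edgeR adjusted p = 0.0111). In complex I ndufb7 fell by 1.22 (SE 0.261, edgeR adjusted p = 0.0131) and ndufb10 by 1.31 (SE 0.283, edgeR adjusted p = 0.0133), beside ndufa6. With libraries 1 and 2 left out, the values were -0.75 for cox5b2, -0.15 for cox4i1, -0.30 for cox8b and -0.17 for cox6b2. For ATP synthase they were -0.46 for atp5meb, -0.13 for atp5f1e and -0.66 for atp5if1b. For complex I they were -0.08 for ndufb7 and -0.18 for ndufb10. The control mean of atp5meb, 37.7 CPM, was close to its mean of 40.7 CPM at 10 µg/L, and that of ndufa6 was 81.3 CPM against 86.9 CPM.

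Between 1 and 0.1 µg/L edgeR called 0 members, with 74 at an unadjusted p below 0.05. Of all genes 0.194% were called (0.0576% higher, 0.136% lower) and 22.3% had an unadjusted p below 0.05. DESeq2 called 48 members and 8.88% of all genes, and limma-voom called 0 members. edgeR called 75 members and 31.2% of all genes without library 3 of the lowest dose, and 1 member and 0.352% of all genes without library 4 of the highest. The lowest adjusted p was that of atp5meb (log2 fold change -0.92, SE 0.191, edgeR adjusted p = 0.0545). The members' median of -0.88 (0.03 over all genes) became 0.07 without libraries 1 and 2. The groups did not overlap in 8 genes that were lower at 1 µg/L (5.39% of all genes) and in sdhaf2, which was higher (6.37% of all genes). Between 10 and 1 µg/L edgeR called 0 members, with 2 at an unadjusted p below 0.05, against 0.0% and 2.88% of all genes, DESeq2 and limma-voom called 0, and the median was -0.08. No member had groups that did not overlap there (0.629% of all genes higher and 0.655% lower).

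The test over the 4 groups called 10 members, against 2.34% of all genes. They were atp5meb (edgeR adjusted p = 0.0226), ndufa6 (0.0270), cox5b2 (0.0315), ndufb7 (0.0387), ndufb3 (0.0412), ndufb10 (0.0412), atp5f1e (0.0423), atp5if1a (0.0460), ndufv3 (0.0467) and atp5if1b (0.0473). Each of them had its highest group mean at 0.1 µg/L. Leaving out library 1, 2 or 3 at 0.1 µg/L gave counts of 0, 0 and 76, beside 0.363%, 0.297% and 27.4% of all genes. Leaving out control libraries 1, 3, 4 or 5 gave 1, 4, 1 and 3, beside 0.842%, 1.08%, 0.8% and 1.24% of all genes. At 1 µg/L libraries 1, 2 and 5 gave 2, 2 and 6 when left out, beside 0.934%, 1.01% and 2.26% of all genes. Leaving out library 4 at 1 µg/L changed the count of 10 by a factor below 1.5, beside 2.45% of all genes. At 10 µg/L libraries 1 to 5 gave 2, 0, 3, 39 and 1, beside 0.957%, 0.405%, 0.962%, 4.3% and 0.647% of all genes.

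**Figure D5:**
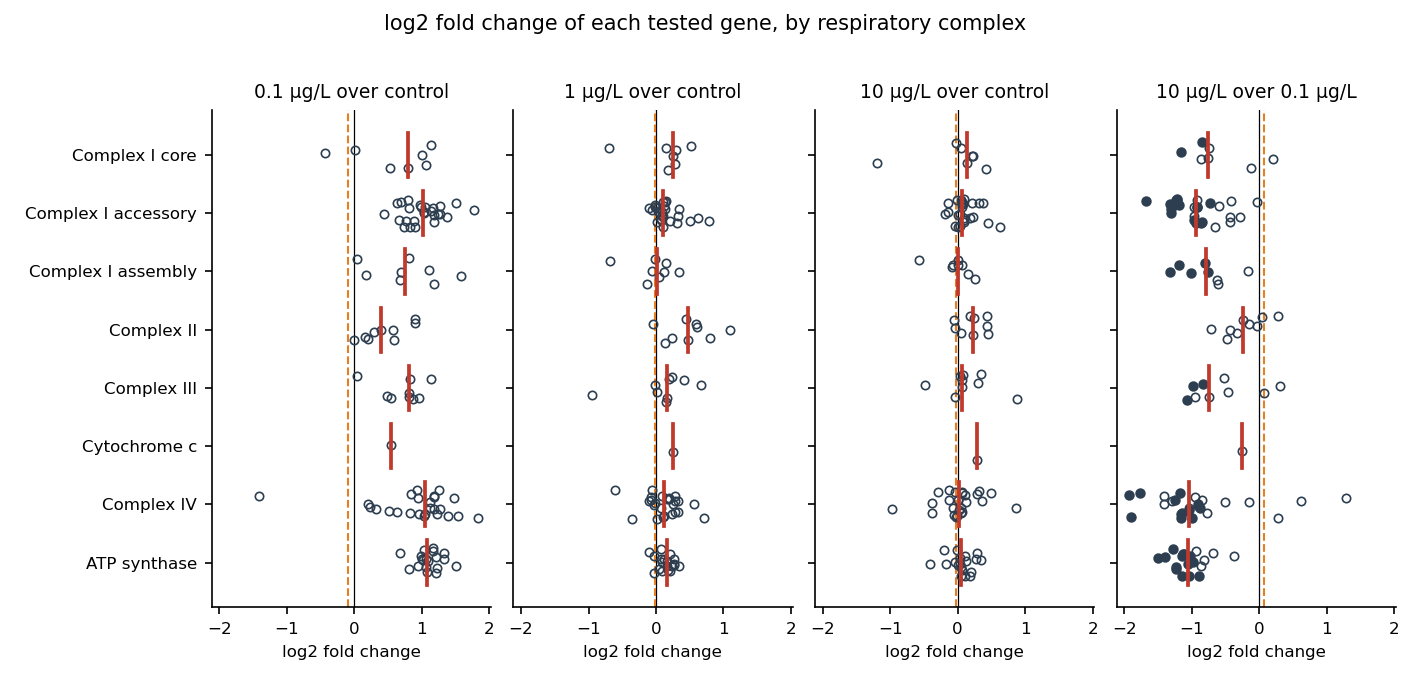
Log2 fold change of each tested member by class in 4 comparisons, filled where edgeR called it and open where it did not, with the class median (red bar) and the median of all genes tested (dashed line). Filled points occur only between 10 and 0.1 µg/L, 52 of 104, and none of them is in complex II or cytochrome c.

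Several subunits are encoded by paralogs, and 1 gene usually held most of the summed RPKM of its family. Of subunit 4 cox4i1 held 74.9% (58.0% to 83.7% over the libraries), cox4i2 24.8% and cox4i1l 0.27%. The share of cox4i2 was highest in library 3 at 10 µg/L, at 41.9%. cox5aa held 71.5% and cox5ab 28.5% of subunit 5A, and COX5B on chromosome 10 held 87.7% (84.3% to 94.8%), COX5B on chromosome 8 8.36% and cox5b2 3.93% of subunit 5B. cox6a1 held 97.6% of subunit 6A, cox8a 94.5% of subunit 8, cox6b2 69.7% of subunit 6B, and cox7a2a 73.6% and COX7A2 23.2% of subunit 7A. For the c ring atp5mc3b held 71.9%, atp5mc1 19.0% and atp5mc3a 9.02%. atp5if1a held 92.7% of the inhibitory factor, and ndufa4l 84.7% and ndufa4 11.1% of the ndufa4 family, which is counted here with complex IV. cycsb was the only cytochrome c gene that the symbols gave.

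The members that varied most over the 16 libraries were mostly low. The SD of log2 CPM was 1.19 for uqcrb, 0.99 for cox7a1, 0.97 for COX5B on chromosome 8, 0.95 for cox4i1l and 0.94 for cox6a2. Of these uqcrb, cox7a1 and cox4i1l were at 0.733, 1.27 and 1.72 RPKM, so their spread includes counting error at a few reads. cox7a1, in mammals a muscle isoform, was at 3.73 CPM in library 1 at 0.1 µg/L and at 0.161 CPM in control library 5.

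Genes related to oxidative phosphorylation but outside the symbol rule had smaller median log2 fold changes than the members at 0.1 µg/L. Assembly factors of other names had a median log2 fold change of 0.39 over 44 tested genes, 35 of them positive. The tricarboxylic acid cycle, which supplies NADH and succinate, had 0.24 over 23 genes, 15 of them positive. The 13 protein-coding transcripts of the mitochondrial genome had 0.24, 11 of them positive. Regulators of mitochondrial biogenesis had -0.28 over 20 genes, 9 of them positive. On TMM-scaled sizes the summed cycle level was 7370, 5559 and 3264 CPM in libraries 1, 2 and 3, against 2273 to 3623 CPM in controls. For the other assembly factors the sums were 937, 793 and 535 CPM, against 511 to 590 CPM. For the regulators they were 666, 618 and 603 CPM, against 577 to 668 CPM. With library size alone, where the median of all genes was -0.50, the 4 medians were -0.09, -0.13, -0.25 and -0.62, and that of the members was 0.41. edgeR called 0 genes of these 4 lists against control at any dose, and without libraries 1 and 2 their medians at 0.1 µg/L were 0.03, 0.11, -0.12 and 0.03. At 1 µg/L the 4 medians, in the same order, were 0.19, 0.09, -0.19 and 0.13, and at 10 µg/L they were 0.08, 0.01, -0.11 and 0.05.

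Between 10 and 0.1 µg/L 6 of the 44 other assembly factors were called lower, beside 7.34% of all genes called lower and 3.26% called higher. Among the 6, coa6, for a copper-handling factor of complex IV, fell by 1.65 (edgeR adjusted p = 0.00909), coa1 by 1.098 (edgeR adjusted p = 0.0154), lyrm2 by 1.34 (edgeR adjusted p = 0.0162) and fastkd2 by 0.72 (edgeR adjusted p = 0.0203) on the log2 scale. Of the cycle enzymes 6 were called lower and 1, ogdhb, was called higher, by 1.01 (edgeR adjusted p = 0.0376). suclg1, for the succinyl-CoA ligase alpha subunit, fell by 1.41 (edgeR adjusted p = 0.0228) and the fumarase gene fh by 1.36 (edgeR adjusted p = 0.0267). Of the regulators nrf1, a transcription factor of respiratory genes in mammals, rose by 0.80 (edgeR adjusted p = 0.0146). The coactivator gene pprc1 fell by 1.21 (edgeR adjusted p = 0.0129), gabpb1 by 1.05 (edgeR adjusted p = 0.0163) and tfb1m by 1.151 (edgeR adjusted p = 0.0362). Of the 13 mitochondrial transcripts 1, mt-nd6, was called lower, by 1.17 (edgeR adjusted p = 0.0281). Without libraries 1 and 2 the values were -0.26 for coa6, -0.33 for suclg1, 0.48 for nrf1, -0.84 for pprc1 and 0.04 for mt-nd6. In the same comparison 10 of the 17 muscle markers were called lower, with a median of -1.92. Of the other markers 4 of heart, 4 of red blood cells, 2 of liver, 1 of ionocytes and 1 of neurons were called lower. By contrast 3 of the 10 photoreceptor markers were called higher, with a median of 0.66 for that list. Against control the median of that list was 0.75 at 10 µg/L and -0.03 at 0.1 µg/L. The part of these tissues in the differences was not tested. In the fit that lacks libraries 1 and 2, the medians were -1.03 for muscle, 0.01 for the mitochondrial transcripts, -0.04 for the cycle and -0.02 for the members.

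The transcripts of the mitochondrial genome did not follow the nuclear genes library by library. Their summed level was 51153, 65198, 78187 and 85100.5 CPM in controls and 109287, 89821 and 62381 CPM at 0.1 µg/L. It was 53921, 66185, 55297 and 74685 CPM at 1 µg/L and 54315, 60020.4, 70152, 76769.5 and 69039.8 CPM at 10 µg/L. On TMM-scaled sizes libraries 1 and 2 at 0.1 µg/L were the highest in both sets. Control library 5, the lowest for the nuclear genes, was the highest control for the mitochondrial ones. The low TMM factors of libraries 1 and 2, 0.581 and 0.742, raise their sums. With library size alone these libraries are not the highest for the mitochondrial set. The ratio of mitochondrial to nuclear summed CPM was 8.53 ± 4.09 (SD, n = 4) in controls, 5.15 ± 1.16 (SD, n = 3) at 0.1 µg/L, 6.13 ± 1.69 (SD, n = 4) at 1 µg/L and 7.02 ± 1.37 (SD, n = 5) at 10 µg/L. These ranges overlapped.

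The authors' deposited table had 4 members at an adjusted p below 0.05 at 0.1 µg/L, among 70 of 24975 genes. In the authors' deposited table these were ndufa6 with a log2 fold change of 1.85 and an adjusted p of 0.0457, atp5meb with 1.06 and 0.0457, ndufb3 with 1.57 and 0.0457, and ndufaf3 with 1.65 and 0.0489. At 1 µg/L the authors' deposited table had sdha and sdhaf2, among 112 of 25272 genes, and at 10 µg/L it had 0 members, among 390 of 25531 genes, with a lowest adjusted p of 0.194. The members' median log2 fold change in the authors' deposited table was 1.03, 0.16 and 0.08 at the 3 doses.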

How the data were processed

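Per the labels' protocols, strand-specific Illumina libraries were made by the dUTP method from polyadenylated RNA of frozen larvae. As deposited, each of 3 tables gave raw counts per gene for 1 dose and the shared controls. Beside them stood the deposited log2 fold change, p-value and adjusted p-value of the authors' own test, with gene length and position. Tools named by the submitters' processing notes are fastp, HISAT2, featureCounts and DESeq2, and the build is GRCz11. No source used here states the strand setting, the annotation release or the treatment of multiply mapped reads. Of the 106 members 22 overlap another listed gene, 6 of them on the same strand, and their counts are less certain.

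The tables were joined by gene identifier into 26183 genes, with 10528 missing cells taken as 0. Genes passing filterByExpr (19092) were tested in 1 fit of all 16 libraries with edgeR 4.0.16 in R 4.3.3 (robust quasi-likelihood F test, TMM factors, 12 residual degrees of freedom, Benjamini-Hochberg adjustment over all genes, called below 0.05). Standard errors (SE) of fold changes on the log2 scale come from the F statistics. CPM are reads per gene scaled to a common library size. RPKM used the deposited gene length, and log2 CPM a prior count of 2. DESeq2 1.42.0, limma 3.58.1 (voom), other scalings, no filter, a replicate block, the compared groups alone, removal of a length trend (loess span 0.5) and leaving out libraries were alternatives. The procedure was tested on simulated data. The members, lists and rules were chosen with earlier results of these data known. Genes named by rule were the 2 most abundant of each class, the called or lowest-p members of each comparison and the paralog families. The 5 most variable members and 7 subunits picked by name were added. Others, among them ndufs3, ndufs8a, ndufaf3, atp5fa1 and NDUFB1, were named outside these rules, after their values were seen. Sequences and promoter motifs were not analysed here.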

Additional observations from a re-analysis of the deposited data

Results flagged for a closer look

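Of 181 sets of 4 or 5 libraries of 1 group, 27 had a library far from the others by Dixon's criterion. That criterion flags about 1 in 20 independent sets by chance. These sets share the same libraries, and the sums contain flagged genes, so the 27 are not compared with that rate. In 16 of the 27 the library was number 4 at 10 µg/L, above the other 4 libraries of its group, in CPM. In complex I ndufv1 was at 321 (others 199 to 233), ndufb7 at 112 (73.8 to 82.4), ndufb3 at 83.8 (36.1 to 46.1), ndufa9b at 3.06 (1.87 to 2.19) and ndufaf1 at 40.7 (30.8 to 32.6). In complexes II and III sdhb was at 283 (161 to 192) and uqcrfs1 at 189 (121 to 135). In complex IV cox6a1 was at 273 (127 to 165), cox6b1 at 52.0 (26.6 to 33.3), cox6b2 at 239.5 (176 to 184) and cox8a at 228 (114 to 139), and in ATP synthase atp5mc1 was at 197 (96.7 to 119.8). The summed level was 1593 for the complex I accessory subunits (978 to 1114), 182 for its assembly factors (123 to 137), 967 for complex III (604 to 701) and 2698 for complex IV (1667 to 1885). The summed level of the skeletal muscle markers was also highest of the group in library 4 at 10 µg/L, at 41216 against 9150 to 33763 in the others, and their part was not tested.

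High single libraries elsewhere were sdhc at 5.47 in control library 4 (others 1.53 to 1.78), sdhaf2 at 19.2 in control library 1 (16.5 to 17.0), ndufaf5 at 36.7 in library 2 at 1 µg/L (31.0 to 31.9) and cox7a2l at 3.18 in library 4 at 1 µg/L (1.18 to 1.51). At 10 µg/L ndufa8 was at 3.05 in library 3 (0.783 to 1.26) and uqcrb at 1.47 in library 2 (at most 0.36). ndufs1 was at 0.159 in library 4 at 1 µg/L, where the others held no read. Low single libraries were COX5B on chromosome 8 at 9.45 in library 2 at 1 µg/L (17.6 to 18.2), cox4i2 at 107 in library 4 at 1 µg/L (125 to 128), atp5if1a at 47.5 in library 1 at 1 µg/L (63.9 to 65.2) and atp5if1b at 3.85 in library 1 at 10 µg/L (6.21 to 6.79).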

How the results depend on the processing

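Counts of called members against control at 1 and 10 µg/L and between 10 and 1 µg/L were 0 under every alternative run. At 0.1 µg/L against control the count of 0 became 71 with DESeq2, beside 10.3% of all genes. It was 0 to 82 when 1 library was left out, the 82 beside 32.0% of all genes. The median of 0.97 became 0.41 with library size alone and 0.10 without libraries 1 and 2 at 0.1 µg/L. In the leave-outs the median was 0.64 to 1.25. Between 10 and 0.1 µg/L the 52 calls became 6 with library size alone, beside 6.26% of all genes. The calls became 0 for the compared groups alone, beside 0.847%, and 0 to 76 in the leave-outs, the 76 beside 36.6%. The median of -0.92 became -0.37 with library size alone and -0.0189 without both libraries. Between 1 and 0.1 µg/L the 0 calls became 1 with DESeq2 size factors, beside 0.45% of all genes, and 48 with DESeq2, beside 8.88%. The leave-outs gave 0 to 75, the 75 beside 31.2%. The median of -0.88 became -0.36 with library size alone and 0.0677 without both libraries. Over the 4 groups the 10 calls became 22 with DESeq2 size factors, 23 without a filter and 63 with DESeq2. The shares of all genes there were 3.38%, 2.45% and 12.7%. The calls became 0 with library size alone, 1 with limma-voom and 4 with the length trend removed, beside 0.267%, 1.25% and 2.24%. The leave-outs gave 0 to 76 over the 4 groups, the 76 beside 27.4%. With the replicate block the count was 5 between 10 and 0.1 µg/L, beside 2.85% of all genes. Over the 4 groups it was 0, beside 0.278%. Same-numbered libraries correlated at -0.44 to 0.45 in their deviations from group means, 5 of 18 pairs above 0.1. The numbers are therefore not taken to pair the samples. The log2 fold change of sdhc at 0.1 µg/L, -0.00, turned to 0.0566 with DESeq2 size factors, 0.0572 without a filter, 0.0492 for the groups alone, 0.056 with DESeq2, 0.126 with limma-voom and 0.308 with the replicate block, and ran from -0.188 to 0.66 in the leave-outs (positive in 4), and ndufa6 between 10 and 0.1 µg/L turned from -1.69 to 0.0236 without both libraries. Results not called in the main fit had no call to lose, and count as kept unless they turned or gained a call. Of 1368 values of 26 named genes under 26 settings, 1139 kept their direction and call status, 197 lost the call, 21 gained one and 11 turned. The cause was not tested. At these depths 16 members were under 5 CPM.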
